A study of Mus musculus with 2 samples.

Results

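The migration genes of muscle precursors described here are Lbx1, Met, Hgf, Cxcr4, Cxcl12 and Gab1, which were found by their symbols in the gene list of both libraries and are 6 of 27998 genes. Inter-limb somites of wild type C57BL/6 mouse embryos were profiled by droplet single-cell RNA sequencing at stages E9.5 and E11.5. At each stage the tissue of 3 embryos was pooled into 1 library, and no other treatment or allele is given for either stage. After the filter on genes and mitochondrial UMIs, 9851 cells were kept for E9.5 and 9595 for E11.5, with medians of 12462 and 12479 UMIs (unique molecular identifiers, tags that let copies of a molecule be counted once). The libraries shared 30 cell barcodes, which are different cells that drew the same tag sequence.

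Skeletal muscle precursors leave the dermomyotome of the somite. At limb levels some of them detach and migrate into the limb bud, while at inter-limb levels most stay to form trunk muscle. Detachment and migration are known to need the receptor tyrosine kinase Met and its ligand Hgf, which is secreted by mesenchyme along the path, with the adaptor Gab1 coupling the receptor to its downstream kinases. Lbx1 is a homeodomain transcription factor of the migrating cells, and Cxcr4 is the chemokine receptor through which such cells respond to mesenchymal Cxcl12.

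Cells were sorted into gates by UMIs of marker genes, without clustering, and the gates are called by these genes. A cell with a Myod1 UMI went to the Myod1 gate, any other cell with a Pax7 UMI to the Pax7 gate and any other cell with a Pax3 UMI to the Pax3 gate. The gates held 8, 119 and 1432 cells in this order in the E9.5 library, and 937, 269 and 308 in that of E11.5. The order matters, because Pax3 UMIs were also present in 113 of the 119 cells of the E9.5 Pax7 gate, in 59.1% of that gate at E11.5 and in 36.1% of the Myod1 gate at E11.5. The mesenchyme gate needed 2 UMIs of Prrx1, Twist1 or Pdgfra and no UMI of Pax3, Pax7, Myod1, Myf5 or Myog. It held 3568 and 5318 cells. Cells with Myf5 or Myog but without Pax3, Pax7 and Myod1 were thus in neither the muscle nor the mesenchyme gates. Cells with UMIs of blood, endothelial, neural crest, neural or epithelial markers went to gates of their own.

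Other muscle genes were then read in the gates. Myog, a regulator of myocyte differentiation, was not used to define the muscle gates. It was at 1375 UPM (UMIs per 1000000 UMIs of the gate) in the E11.5 Myod1 gate and at 23.1 in the Pax7 gate. Myf5 was at 26.8 UPM in the E9.5 Pax3 gate and at 183 in the E11.5 Pax7 gate. The 7 neural tube and crest genes examined (Sox2, Sox3, Pax6, Elavl3, Olig3, Sox10, Foxd3) summed to 13.1 UPM in the E9.5 Pax3 gate, with all 7 genes detected, against 4.18 at E11.5, where Pax6 and Foxd3 were at 0. In the mesenchyme gate they summed to 4.83 and 1.46 UPM. Muscle and mesenchyme gate cells could hold at most 1 UMI over Sox2, Pax6 and Elavl3, and 1 over Sox10 and Foxd3, which limits these sums.

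With 1 library per stage, stage and library cannot be told apart, and no test was possible. Every interval of a level, share or log2 ratio below is an exact 95% interval that covers counting error only. The intervals of levels and log2 ratios treat UMIs as independent. They are too narrow where few cells hold many of the UMIs, as for Lbx1 and Cxcl12. A difference is called larger than counting error where the interval of its log2 ratio leaves out 0. For co-detection ratios, the 95% Poisson interval of the joint count was divided by the expected count. The error of the expected count is left out, so these intervals are approximate. Levels are compared within a gene, never between genes, since a count of 3′ tags depends on how each transcript is captured.

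The genes were sparse and fell into different cells. Lbx1 had 553 UMIs in 209 cells at E9.5, compared with 176 in 93 at E11.5. Cxcl12, at the other end, had 9839 UMIs in 3637 cells and 11468 in 3095. The muscle gates held 75.1% of the cells with a Lbx1 UMI at E9.5 but 51.6% at E11.5, when 41.9% lay in the neural gate. For Met the share in the muscle gates was 34.9% at E9.5, compared with 52.4% at E11.5. Cells with a Cxcr4 UMI were mostly neural at E9.5 (57.9%), and the muscle gates held 12.9% of them at E9.5, compared with 31.1% at E11.5. The mesenchyme gate held 78.6% and 77.9% of the cells with an Hgf UMI, and 58.2% and 73.9% of those with a Cxcl12 UMI. Gab1 was spread widely, with 34.0% and 55.7% of its cells in the mesenchyme gate.

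Lbx1, the marker of migrating precursors, was highest of 26 gates and stages in the E9.5 Pax3 gate. There it was at 18.8 UPM (17.1 to 20.6), from 444 UMIs in 150 of 1432 cells, or 10.5%. In the E11.5 Pax3 gate it was at 1.76 UPM (0.760 to 3.47), from 8 UMIs in 7 of 308 cells. The log2 ratio of E11.5 over E9.5 was -3.41 (-4.63 to -2.42). Because the E11.5 Pax3 gate lacks cells that also had Pax7 or Myod1, the ratio was repeated with gates that may share cells. This gave -2.32 (-2.77 to -1.90). With cells thinned to 5000 UMIs, and shallower cells left out, it was -2.36 (-4.01 to -1.10), on 5 UMIs at E11.5. The mean of the cells' own shares of Lbx1 UMIs gave -2.03. These values lay above the main interval. In all muscle gates together Lbx1 was at 17.4 UPM at the earlier stage and 3.26 at the later, a log2 ratio of -2.42 (-2.77 to -2.08).

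Within the E9.5 muscle gates, the UMIs of Lbx1 were concentrated in few cells. Of 157 cells with a UMI, 43 had at least 4, and these held 55.8% of all Lbx1 UMIs there, with up to 14 in a cell. At E11.5, 4 of 48 cells had at least 4 UMIs. The Pax7 gate was at 5.81 UPM at E9.5, compared with 3.86 at E11.5, a log2 ratio of -0.59 (-1.66 to 0.50), which counting error covers. At E9.5 the Pax7 gate was lower than the Pax3 gate, with a log2 ratio of -1.69 (-2.54 to -0.95). The E11.5 Myod1 gate was at 3.49 UPM (2.66 to 4.49), and the 3 muscle gates of that stage had overlapping intervals.

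Outside muscle, Lbx1 marks a class of dorsal spinal cord interneurons as well, and the neural gate was second in its order. Lbx1 there was at 1.26 UPM in the E9.5 library and 12.1 (9.65 to 15.1) in the E11.5 library, a log2 ratio of 3.27 (2.73 to 3.83). The mesenchyme gate was at 0.340 UPM at E9.5, and 0 of 5318 mesenchyme cells had a UMI at E11.5, which allows a share of up to 0.0564%. At E9.5 a Lbx1 UMI was found in 10.5% of the Pax3 gate (median 14326 UMIs). It was found in 0.855% of the red blood gate (14991 UMIs), which was 1 cell with 4 UMIs, and in 1.50% of the endothelial gate (14840 UMIs). The part of free RNA in the red blood and endothelial shares was not tested. At E11.5 neither of these gates had a UMI, in 133 and 67 cells.

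Met, the receptor of Hgf, was higher at E11.5 in the muscle gates. In the Pax3 gate it was at 5.79 UPM (4.86 to 6.85), in 8.24% of cells, at E9.5, and at 10.1 (7.41 to 13.5), in 10.4%, at E11.5. The log2 ratio was 0.81 (0.29 to 1.30), and 1.48 with gates that may share cells. Epcam, the epithelial marker, of which the gate allows at most 1 UMI, moved in the same direction. A UMI was present in 1.26% of the Pax3 gate at E9.5, compared with 12.7% at E11.5. In the mesenchyme gate the Epcam shares were 1.04% and 7.18%, while Met was at 1.72 and 1.41 UPM there. The epithelial gate had Met at 25.8 and 11.7 UPM. Among Pax3 gate cells with no UMI of any marker of another cell type, Epcam included, the log2 ratio of Met was 0.43 (-0.22 to 1.03). Counting error covers this value. In all cells of the Pax3 gate thinned to equal depth the ratio was 0.87 (-0.03 to 1.70). The part of epithelial cells in the difference was not tested.

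In the Pax7 gate the ratio of Met between the stages was higher, on few UMIs at E9.5. Met was at 3.10 UPM, on 8 UMIs, and at 14.1 (10.9 to 18.0), in 17.5% of cells, a log2 ratio of 2.19 (1.13 to 3.46). Without any marker UMI of another cell type this ratio was 2.00 (0.93 to 3.27), and with gates from 1 more UMI it was 0.98 (-0.46 to 2.91), on 4 UMIs at E9.5. Thinned to equal depth it was 1.56 (-0.59 to 4.75). In all muscle gates together Met was at 5.49 and 10.5 UPM, a log2 ratio of 0.93 (0.63 to 1.23). None of 117 red blood cells at E9.5 or of 133 at E11.5 had a Met UMI, which allows shares of up to 2.56% and 2.26%.

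Along the E11.5 gates, Met was at 10.1 UPM in the Pax3 gate, 14.1 in the Pax7 gate and 9.54 (8.13 to 11.1) in the Myod1 gate. The ratio of the Pax7 over the Pax3 gate, 0.48 (-0.08 to 1.06) on the log2 scale, lay within counting error. It was -0.21 with gates that may share cells and 0.87 (0.20 to 1.57) without cells that had a marker UMI of another type. The ratio of the Myod1 over the Pax7 gate was -0.57 (-0.99 to -0.13), but in cells thinned to equal depth it was 0.26, on 53 and 13 UMIs, so that its direction was not stable. Inside the Myod1 gate, cells with a Myog UMI had Met at 7.16 UPM (5.75 to 8.81) and cells without at 15.7, a log2 ratio of -1.14 (-1.59 to -0.67). Cxcl12 was lower with Myog as well, at 12.6 and 24.5 UPM (-0.97, -1.32 to -0.61). Lbx1 (0.47), Cxcr4 (0.37), Hgf (-0.27) and Gab1 (-0.01) had log2 ratios within counting error in the same split.

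Cxcr4, the receptor of Cxcl12, was lower at E11.5 in the gates of early muscle cells. In the Pax3 gate it was at 6.93 UPM (5.91 to 8.08), in 10.2% of cells, at E9.5, compared with 1.76 (0.760 to 3.47), in 2.60%, at E11.5. The log2 ratio was -1.98 (-3.21 to -0.96), and -0.67 with gates that may share cells. In the Pax7 gate it was at 11.2 UPM and 3.43, a log2 ratio of -1.71 (-2.69 to -0.78), but 0.08 in thinned cells, where 3 and 7 UMIs were left. All muscle gates together gave 7.46 and 4.54 UPM, with a log2 ratio of -0.72 (-1.06 to -0.38).

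At E11.5 Cxcr4 was highest among muscle cells in the Myod1 gate. It was at 5.58 UPM (4.52 to 6.82), in 8.54% of cells, and its log2 ratio over the Pax3 gate was 1.66 (0.63 to 2.92). Over the Pax7 gate the ratio was 0.70 (-0.07 to 1.57), within counting error, and -0.32 with gates that may share cells. The neural gate, with 28.8 UPM (E9.5) and 20.5 (E11.5), the neural crest gate, with 20.8 at E9.5, and the endothelial gate, with 26.9 at E11.5, were all above any muscle gate. In the red blood gate 4.27% of cells had a Cxcr4 UMI at E9.5, compared with 0.752% at E11.5. The Pax3 gate had 10.2% and 2.60%. At E11.5 the upper bound of the red blood share, 4.12%, lay above the share of the Pax3 gate, so that the 2 were not told apart. The E9.5 Pax3 gate held more UMIs of the 7 neural genes, whose sum moved in the same direction as Cxcr4. Of the 7, Elavl3 went the other way, at 0.380 and 1.32 UPM, on 9 and 6 UMIs. Without cells that had any UMI of the 7 genes, the stage ratio of Cxcr4 was -2.11 (-3.58 to -0.94).

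Gab1, the adaptor of Met, was alike in mesenchyme and all muscle gates of the E9.5 library (log2 ratio 0.01, -0.20 to 0.21). In the E11.5 library it was higher in mesenchyme, by 0.49 (0.32 to 0.66) on the log2 scale. In the Pax3 gate it was at 12.1 UPM (10.7 to 13.6) at E9.5, compared with 14.7 (11.4 to 18.7) at E11.5, a log2 ratio of 0.29 (-0.12 to 0.68). The Pax7 gate was at 9.30 and 14.8 UPM and the E11.5 Myod1 gate at 13.6. A UMI was found in 16.4% of the E9.5 Pax3 gate and in 14.5% of the red blood gate of that stage. The part of free RNA in these shares was not tested. At E11.5 the shares were 18.8% and 9.02%. The highest levels lay in the endothelial gate, 29.7 and 44.0 UPM, and in the E11.5 neural crest gate, 40.0, whose intervals overlap at E11.5. In the mesenchyme gate Gab1 was at 11.8 UPM in the earlier library and 19.6 in the later, a log2 ratio of 0.73 (0.59 to 0.87).

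**Figure D1:**
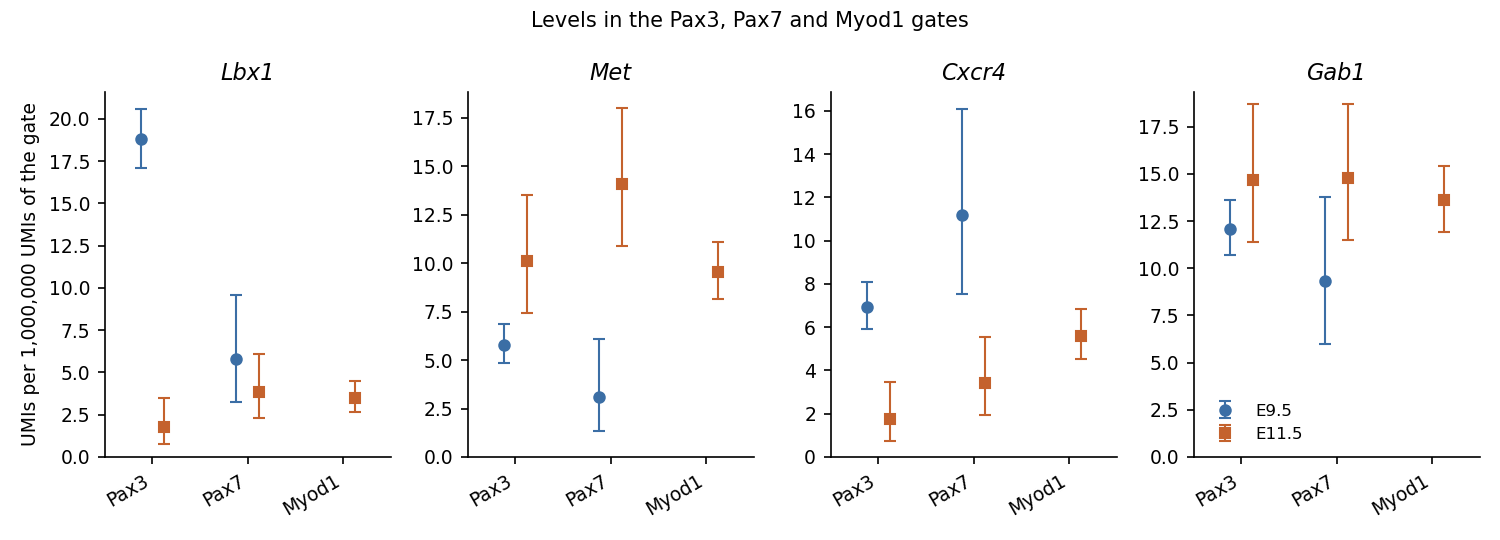
Level of Lbx1, Met, Cxcr4 and Gab1 (UMIs per 1000000 UMIs of the gate, linear axes from 0) in the Pax3, Pax7 and Myod1 gates at E9.5 (blue circles) and E11.5 (orange squares), with exact 95% Poisson intervals as bars; the 8 Myod1 cells of E9.5 are not plotted. Lbx1 is at 18.8 and 1.76 in the Pax3 gate, and Met at 3.10 and 14.1 in the Pax7 gate.

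The stage differences were then set beside those of all genes. In the Pax3 gate, 17.4% of the 10868 genes with at least 50 UMIs differed by at least 2-fold between the stages, with a median log2 ratio of 0.08. Of the 5 members with enough UMIs, Lbx1 and Cxcr4 were lower at E11.5 by at least 2-fold and none was higher. In the mesenchyme gate, where 23.9% of 13371 genes differed by at least 2-fold and the median of all genes was 0.22, none of the 5 members with enough UMIs did. Between the E11.5 Myod1 and Pax7 gates 7.17% of 10990 genes differed by at least 2-fold, and again none of 5 members did.

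Most genes of the wider pathways differed by less than 2-fold between the stages, as did most of all genes, of which 17.4% were past 2-fold in the Pax3 gate. Of 13 genes of Met signalling (the adaptors, kinases and co-receptors Grb2, Shc1, Sos1, Ptpn11, Pik3r1, Pik3ca, Crk, Crkl, Rapgef1, Cbl, Plxnb1, Cd44 and Rac1), only Pik3r1, the regulatory subunit of PI3-kinase, was 2-fold higher in the E11.5 Pax3 gate, at 10.7 and 39.2 UPM. Their median log2 ratio was 0.06. Of 7 genes of Cxcr4 signalling, Gnai1, a G protein subunit (16.5 and 6.16 UPM), and Arrb1, a beta-arrestin that shuts receptors off (10.7 and 4.40 UPM), were 2-fold lower. Rgs16, which speeds the switching-off of G proteins, was at 70.9 UPM in the E11.5 Myod1 gate, a log2 ratio of 2.98 (2.54 to 3.46) over the Pax7 gate, the only gene of the list past 2-fold there.

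Ackr3, the other receptor of Cxcl12, which scavenges the ligand, moved opposite to Cxcr4. In the Pax3 gate it had 71 UMIs in 4.33% of cells at E9.5, compared with 215 UMIs, or 47.3 UPM, in 39.0% at E11.5, a log2 ratio of 3.98 (3.59 to 4.39). In the mesenchyme gate it was at 4.74 and 31.9 UPM, a ratio of 2.75 (2.55 to 2.95). The red blood gate was at 6.23 and 72.7 UPM, a log2 ratio of 3.54 (2.73 to 4.48), above the Pax3 gate at E11.5. The part of free RNA in these levels was not tested. Gab2, the relative of Gab1, was at 2.28 and 3.08 UPM in the Pax3 gate, within counting error. Lbx2, Mst1r and Mst1, the relatives of Lbx1, Met and Hgf, each had fewer than 50 UMIs in that gate over both stages.

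Among regulators of limb muscle precursors, Msx1, a homeodomain repressor of differentiation, was lower at E11.5 in the Pax3 gate, at 19.2 and 3.96 UPM. Pax3, Six4, Eya1, Eya2, Meox2 and Sim1 differed by less than 2-fold. Of 3 guidance genes, Epha4 (29.8 and 93.8 UPM) and its ligand Efna2 (35.1 and 75.5 UPM) were 2-fold higher at E11.5, and Efna5 was not. Of 4 genes that activate Hgf or hold its activation back, Spint2, an inhibitor of the activating proteases, had enough UMIs and was at 6.38 and 17.4 UPM. These differences were not particular to the Pax3 gate. In the mesenchyme gate Msx1 (42.9 and 8.48 UPM), Epha4 (30.5 and 154) and Spint2 (6.36 and 14.1) were past 2-fold in the same directions. Efna2 (49.7 and 78.5) was higher there by less than 2-fold.

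**Figure D2:**
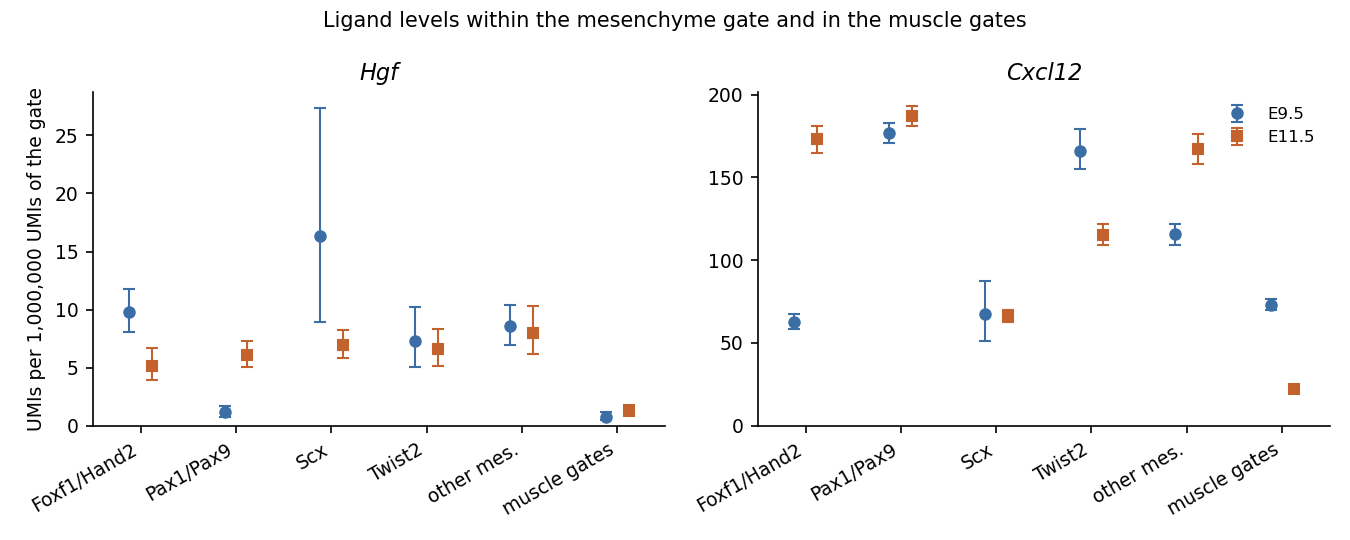
Level of Hgf and Cxcl12 (UMIs per 1000000 UMIs of the gate, linear axes from 0) in 5 divisions of the mesenchyme gate and in all muscle gates, at E9.5 (blue circles) and E11.5 (orange squares), with exact 95% Poisson intervals as bars. Hgf in Pax1/Pax9 cells is at 1.13 and 6.09, and Cxcl12 in Foxf1/Hand2 cells at 62.7 and 173, while Cxcl12 in the muscle gates is at 73.0 and 22.3.

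Hgf, the ligand of Met, had most of its cells in the mesenchyme gate at both stages. The mesenchyme gate was at 5.79 UPM (5.12 to 6.52), in 6.08% of cells, at E9.5, compared with 6.49 (5.91 to 7.12), in 6.37%, at E11.5, which is a log2 ratio of 0.17 (-0.05 to 0.39). The muscle gates were at 0.758 and 1.29 UPM, so that mesenchyme was higher by 2.93 (2.28 to 3.67) and 2.33 (1.83 to 2.88) on the log2 scale. No cell of the red blood gate had an Hgf UMI at either stage. The white blood gate of E11.5, 90 cells, was at 10.4 UPM (5.36 to 18.1), on 12 UMIs. Hgf in the epithelial gate was at 5.00 UPM (2.58 to 8.74) at E9.5, an interval that overlaps that of mesenchyme, and at 3.51 (2.08 to 5.55) at E11.5.

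The like totals of Hgf were made up differently across the mesenchyme. The gate was divided by Foxf1 or Hand2 (lateral plate genes), Pax1 or Pax9 (sclerotome), Scx (tendon precursors) and Twist2 (dermis). Pax1/Pax9 cells had Hgf at 1.13 UPM (0.709 to 1.71) at E9.5, compared with 6.09 (5.03 to 7.30) at E11.5, a log2 ratio of 2.43 (1.76 to 3.16). Foxf1/Hand2 cells lay the other way, at 9.81 and 5.15 UPM, a ratio of -0.93 (-1.42 to -0.45). In Scx cells it was at 16.3 UPM, on 14 UMIs in 63 cells, and at 6.95, a ratio of -1.23 (-2.03 to -0.32). Twist2 cells (7.27 and 6.62 UPM) and the remaining mesenchyme (8.54 and 8.02) differed by less than counting error. At E9.5 Foxf1/Hand2 cells thus had more Hgf than Pax1/Pax9 cells, by 3.11 (2.44 to 3.85) on the log2 scale, and at E11.5 the ratio was -0.24 (-0.73 to 0.23). On GRCm38 Lbx1 lies at chr19:45232684-45235812, Met at chr6:17463800-17573980, Cxcr4 at chr1:128588199-128592293, Cxcl12 at chr6:117168535-117181367 and Gab1 at chr8:80764438-80880519. Hgf lies at chr5:16553495-16620152, where Gm43489 and Gm42975 overlap it on the same strand, so that some of its tags could belong to them.

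Cxcl12, the ligand of Cxcr4, was at 133 UPM (129.6 to 136) in the E9.5 mesenchyme gate and 135 (133 to 138) in that of E11.5. Its log2 ratio, 0.03 (-0.02 to 0.07), lay under the median of all genes in that gate. A UMI was found in 59.4% and 43.0% of mesenchyme cells, and in 40.2% and 30.1% at 5000 UMIs per cell. Since these shares move while the level does not, no order is read from them. Of the UMIs, cells with at least 4 UMIs held 58.3% at E9.5 (634 cells) and 74.6% at E11.5 (847 cells), and the highest cell had 19 and 35 UMIs. In the red blood gate 9.40% and 4.51% of cells had a Cxcl12 UMI.

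Like Hgf, Cxcl12 differed between the stages within parts of the mesenchyme. Foxf1/Hand2 cells were at 62.7 UPM (58.1 to 67.6) and then 173 (165 to 181), a log2 ratio of 1.46 (1.34 to 1.59), opposite to Hgf in the same cells. Pax1/Pax9 cells were high at both stages, at 177 and 187 UPM. Twist2 cells were at 166 UPM at E9.5 and had a log2 ratio of -0.53 (-0.66 to -0.40), the remaining mesenchyme was at 116 and 167 UPM, and Scx cells were low at 67.7 and 66.0.

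The muscle gates held Cxcl12 UMIs too, with lower levels at E11.5. The Pax3 gate was at 74.0 UPM (70.6 to 77.5), in 50.7% of cells, in the earlier library and 37.4 (32.0 to 43.5), in 23.4%, in the later, a log2 ratio of -0.98 (-1.22 to -0.76). The Pax7 gate was at 64.7 and 31.1 UPM, and the E11.5 Myod1 gate was the lowest of the 3, at 15.9, with a log2 ratio of -0.97 (-1.26 to -0.67) over the Pax7 gate. Mesenchyme exceeded the muscle gates by 0.86 (0.79 to 0.94) on the log2 scale at E9.5, compared with 2.60 (2.48 to 2.73) at E11.5.

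**Figure D3:**
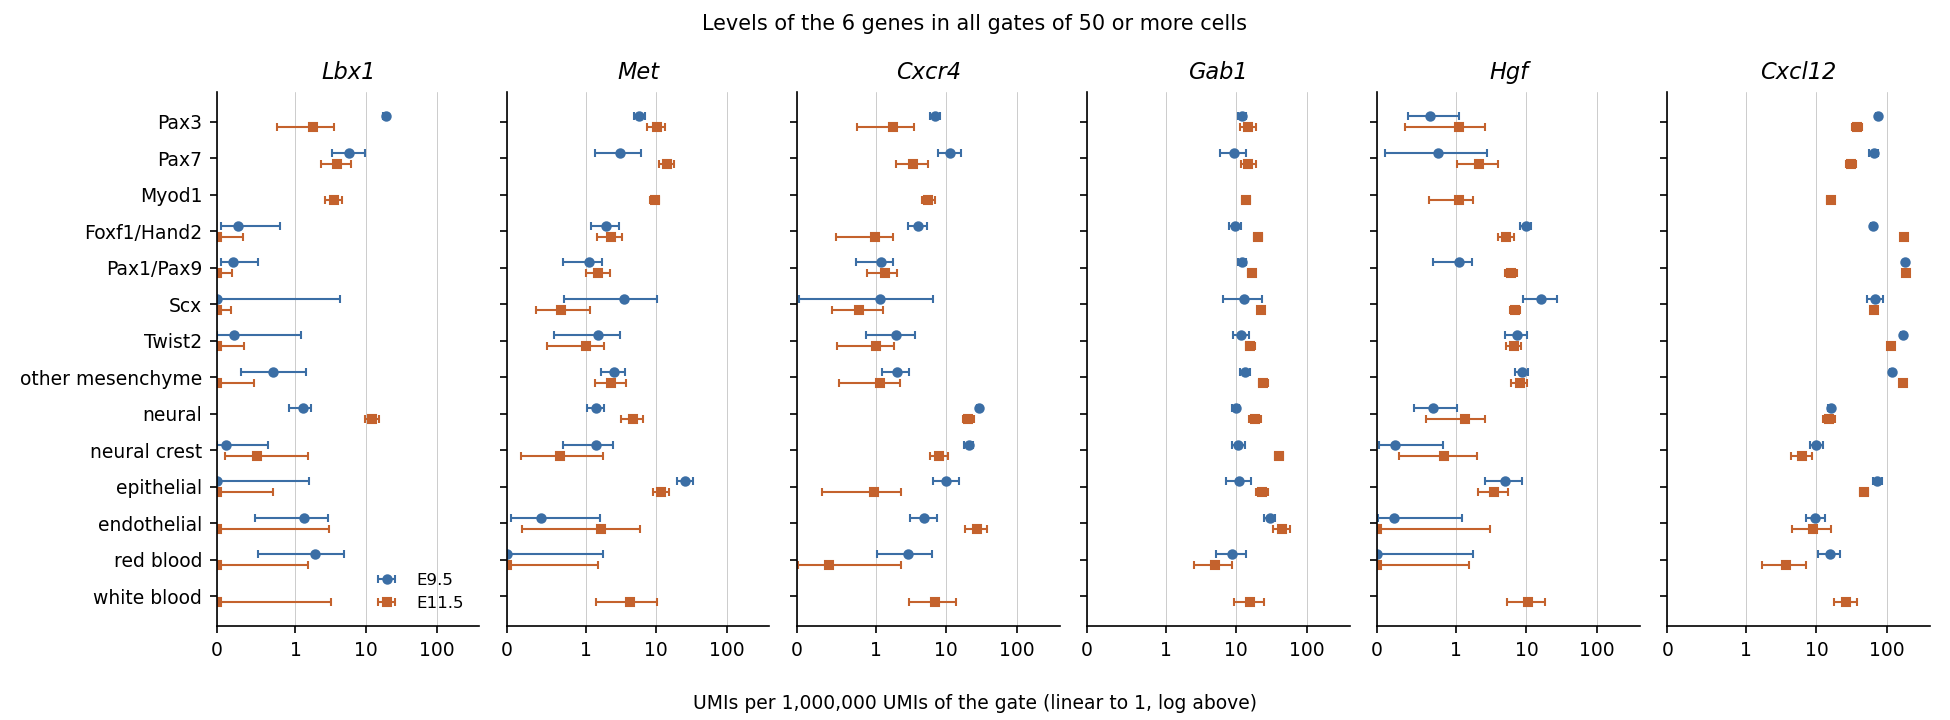
Level of each of the 6 genes (UMIs per 1000000 UMIs of the gate; axis linear up to 1 and logarithmic above) in every gate of at least 50 cells at E9.5 (blue circles) and E11.5 (orange squares), with exact 95% Poisson intervals as bars. Lbx1 has 1 high muscle gate and 1 high neural gate, Hgf is highest in the E9.5 Scx row (16.3) and then the E11.5 white blood row (10.4), Cxcl12 is highest in mesenchyme rows, and Gab1 lies between 4.93 and 44.0.

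In single cells of the muscle gates, more cells had both Lbx1 and Met at E9.5 than the product of their shares gives. Of 1559 cells, 157 had a Lbx1 UMI, 125 a Met UMI and 33 both, against 12.6 expected from the product of the shares, a ratio of 2.62 (1.80 to 3.68). Met was present in 21.0% of cells with Lbx1 and in 6.56% of cells without. Cells with Lbx1 were somewhat deeper, at a median of 16336 UMIs against 14424.5, and at 5000 UMIs per cell the ratio was 2.56 (0.938 to 5.56), on 6 cells. At E11.5, 12 cells had both against 6.25 expected, a ratio of 1.92 (0.993 to 3.36).

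Lbx1 and Cxcr4 were apart at E9.5. Only 6 cells had both against 17.6 expected, a ratio of 0.340 (0.125 to 0.741), and Cxcr4 was found in 3.82% of cells with Lbx1 and in 12.1% of cells without. At E11.5 the same pair lay on the other side of 1, with 9 cells against 3.23 expected and a ratio of 2.78 (1.27 to 5.28). The intervals of the 2 stages do not overlap at full depth. At 5000 UMIs per cell they do, with ratios of 0 (0 to 1.31) and 2.47 (0.0625 to 13.8) on 0 and 1 cells, so the turn between the stages was not detectable there. Lbx1 and Gab1 were found together in 43 cells against 25.6 expected at E9.5, a ratio of 1.68 (1.22 to 2.26), and in 12 against 9.89 at E11.5. At equal depth the E9.5 ratio was 1.62 (0.650 to 3.33).

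For the pairs of receptors and adaptor, counting error covered a ratio of 1 at full depth. Met and Cxcr4 shared 16 cells at E9.5, and 19 against 13.3 expected at E11.5, with ratios of 1.14 (0.652 to 1.85) and 1.43 (0.862 to 2.24). Met and Gab1, receptor and adaptor, had ratios of 1.08 (0.677 to 1.64) and 0.985 (0.704 to 1.34), and Cxcr4 and Gab1 of 0.877 (0.567 to 1.29) and 1.24 (0.808 to 1.81). At equal depth no E11.5 cell had both Met and Gab1 against 4.31 expected, a ratio of 0 (0 to 0.857) that leaves out 1. A receptor was detected in a minority of cells: 18.2% of the E9.5 muscle gates and 18.5% of those of E11.5 had a UMI of Met or Cxcr4, and 63.1% and 63.2% had none of Lbx1, Met, Cxcr4 and Gab1. Lbx1, Met and Cxcr4 were found together in 0 cells at E9.5, compared with 5 at E11.5. A cell without a UMI is not a cell without the transcript at this depth, since most cells with Met, Cxcr4 or Gab1 had a single UMI.

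For a receptor and its own ligand in muscle cells, counting error also covered a ratio of 1. In the muscle gates Met and Hgf were found together in 1 cell at each stage, against 1.44 and 3.51 expected. Cxcr4 and Cxcl12 were found together in 95 cells at E9.5 against 89.6 expected, and in 18 against 16.9 at E11.5, a ratio of 1.06 at both stages. In the mesenchyme gate the few Cxcr4 cells held Cxcl12 less often at E9.5, with 24 cells against 51.1 expected. The ratio was 0.470 (0.301 to 0.700), and that of E11.5 was 0.694 (0.424 to 1.07). At E9.5 the divisions of this gate differed in both genes. Foxf1/Hand2 cells had Cxcr4 at 3.94 UPM and Cxcl12 at 62.7, and Pax1/Pax9 cells had them at 1.18 and 177. The part of the divisions in the ratio was not tested.

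The ligands changed sides between the stages. In the E9.5 mesenchyme gate Hgf and Cxcl12 were found together in 48 cells against 129 expected, a ratio of 0.373 (0.275 to 0.494), with Cxcl12 in 22.1% of Hgf cells and in 61.8% of the others. At E11.5 it was 196 cells against 146 expected, a ratio of 1.35 (1.16 to 1.55), with Cxcl12 in 57.8% and 42.0%. At equal depth the ratios were 0.289 (0.139 to 0.531) and 1.59 (1.25 to 1.99). At E9.5 the ratio was 0.397 in Foxf1/Hand2 cells, 0.256 in Twist2 cells and 0.438 in the remaining mesenchyme. Pax1/Pax9 cells stood apart at 1.08 (0.628 to 1.73), though only 20 of them had Hgf, and in Scx cells none of 12 Hgf cells had Cxcl12. At E11.5 each of the 5 divisions had a ratio between 1.24 and 1.62, with the interval above 1 in Scx and Twist2 cells.

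**Figure D4:**
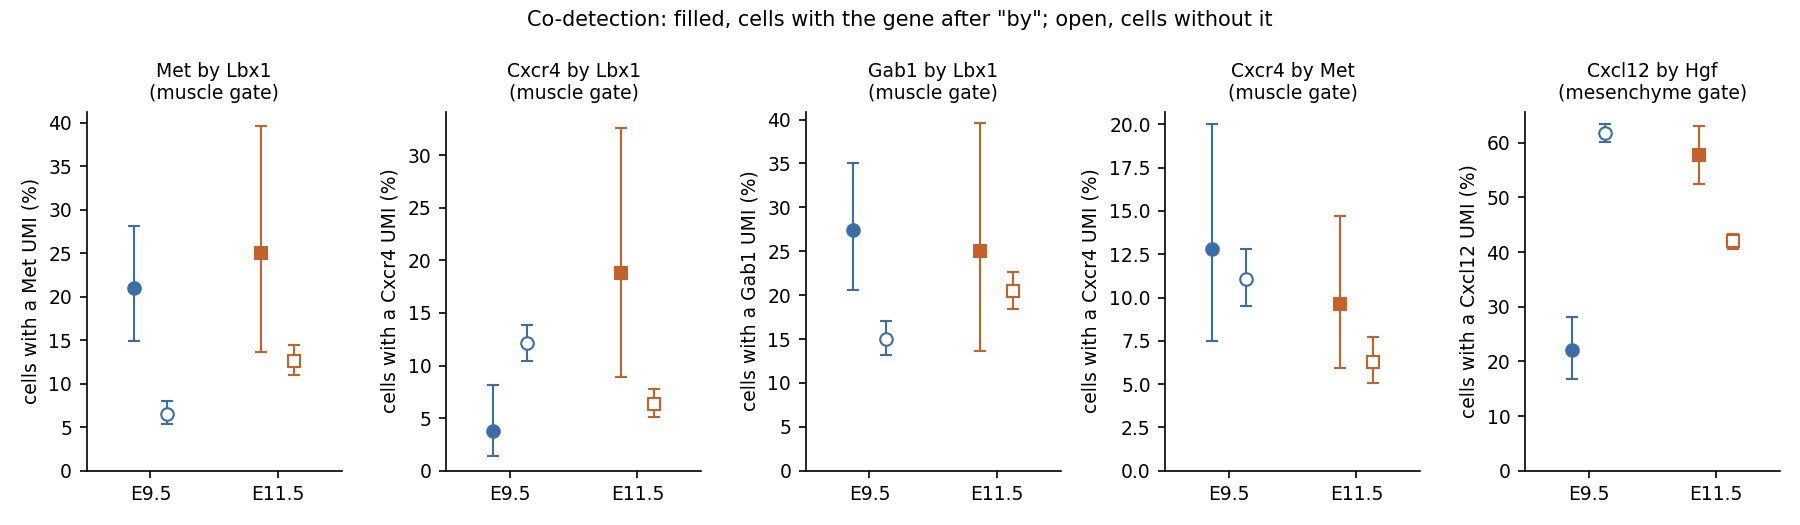
Share of cells (%) with a UMI of the first-named gene among cells with (filled) and without (open) a UMI of the gene after "by", at E9.5 (blue circles) and E11.5 (orange squares), in the muscle or mesenchyme gates; bars are 95% Clopper-Pearson intervals. Cxcr4 by Lbx1 and Cxcl12 by Hgf lie on opposite sides at the stages, from 3.82% against 12.1% and 22.1% against 61.8% at E9.5 to 18.8% against 6.34% and 57.8% against 42.0% at E11.5.

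The Lbx1 cells of the E9.5 muscle gates were then set against the other cells of these gates. Among 10537 genes with at least 50 UMIs, 4.31% differed by at least 2-fold. Of the 4 other members with enough UMIs, Met was higher, at 15.6 and 4.22 UPM, a log2 ratio of 1.88 (1.34 to 2.40), and Cxcr4 was lower, at 2.37 and 8.11 UPM, -1.78 (-3.11 to -0.71). Gab1 (20.3 and 10.7 UPM) and Cxcl12 (53.1 and 75.5) differed by less than 2-fold. None of the 13 genes of Met signalling or the 7 of Cxcr4 signalling differed by 2-fold.

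Of 8 regulators of limb muscle precursors with enough UMIs, the 1 past 2-fold was Eya2, a transcriptional cofactor, which was lower at 4.73 and 10.4 UPM, a log2 ratio of -1.13 (-2.02 to -0.36). Under 2-fold, Pax3 was at 345 and 212 UPM and Sim1, a transcription factor of the dermomyotome's lateral and ventral cells, was at 30.4 and 15.6 UPM. The Lbx1 cells had less Myf5 (8.79 and 31.0 UPM) and less of the posterior Hox genes Hoxc8 (12.5 and 45.7) and Hoxc9 (5.41 and 22.1). Hoxc5, of more anterior expression, was at 28.4 and 16.4 UPM. The 5 genes with the highest ratio were Kdr, a VEGF receptor (81.2 and 6.53 UPM), Lypd1, Etv2, a transcription factor of blood vessel precursors, Hopx, and Grem1, a secreted BMP antagonist that had a UMI in 68.8% of Lbx1 cells. Etv2 had 225 UMIs in 25 of the 157 cells. The muscle gates allow at most 1 UMI of the endothelial markers Cdh5 and Pecam1, so their low level in these cells, 0.676 UPM against 0.555 in the others, was set by the gate. The part of endothelial cells in the Kdr and Etv2 ratios was not tested. The 7 neural genes, of which the gates limit Sox2, Pax6, Elavl3, Sox10 and Foxd3, were at 4.06 and 13.7 UPM. A doublet score over 0.2 was found in 0.637% of Lbx1 cells and 3.85% of the others.

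For Met the leading genes were Ripply2, Pcdh8, Lbx1, Calcrl and Tbx18 at E9.5. They were Pdgfrl, Hs3st3b1, Crym, Sowahb and Mkx at E11.5. Ripply2 had 129 UMIs in 11 of 125 Met cells, so that few cells carry its ratio. For Cxcr4 the leading genes at E9.5 were Myog, Tnnc2, Gadd45g, Neurog2 and Actc1, of which Myog, Tnnc2 and Actc1 belong to differentiating muscle and Neurog2 to neural precursors. Myog had a UMI in 7 of 175 Cxcr4 cells, and the 7 neural genes were at 19.9 UPM in Cxcr4 cells and 11.6 in the others. At E11.5 they included Fabp7, Zfp536, Pantr1 and Raet1e, when the neural genes were at 2.77 and 1.94 UPM. The part of other cells in these ratios was not tested.

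Pax3, the transcription factor upstream of Met in limb muscle precursors, was used next to order the cells of the muscle gates by its UMIs. At E9.5 Lbx1 was at 5.39 UPM in cells with 1 Pax3 UMI, 11.7 in cells with 2 to 3 and 26.9 (24.1 to 29.9) in cells with 4 or more. At E11.5 it was between 1.80 and 5.54 UPM in the 4 classes, with no such order. Met rose with Pax3 UMIs at both stages. At E11.5 it was at 4.55 UPM (3.43 to 5.92) with no Pax3 UMI and 8.09 (5.73 to 11.1) with 1. It was at 15.1 (11.8 to 19.1) with 2 to 3 and 22.7 (18.7 to 27.2) with 4 or more, when 31.1% of cells had a Met UMI. Of these neighbours, only the classes of 1 and of 2 to 3 UMIs had intervals apart. At E9.5 Met was at 3.27 (1.99 to 5.04), 5.41 and 6.70 (5.34 to 8.29) UPM. There neighbouring intervals overlapped, but those of the lowest and highest class did not. Cells with no Pax3 UMI can come only from the Pax7 and Myod1 gates. In the E11.5 Myod1 gate Met was lower in cells with Myog, at 7.16 UPM against 15.7. The part of differentiation in the order of Met was not tested. Cxcr4 and Gab1 followed no such order at either stage. The Pax3 classes also differ in depth, with medians of 12386.5, 13718 and 17478 UMIs at E9.5, for which levels per 1000000 UMIs allow.

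**Figure D5:**
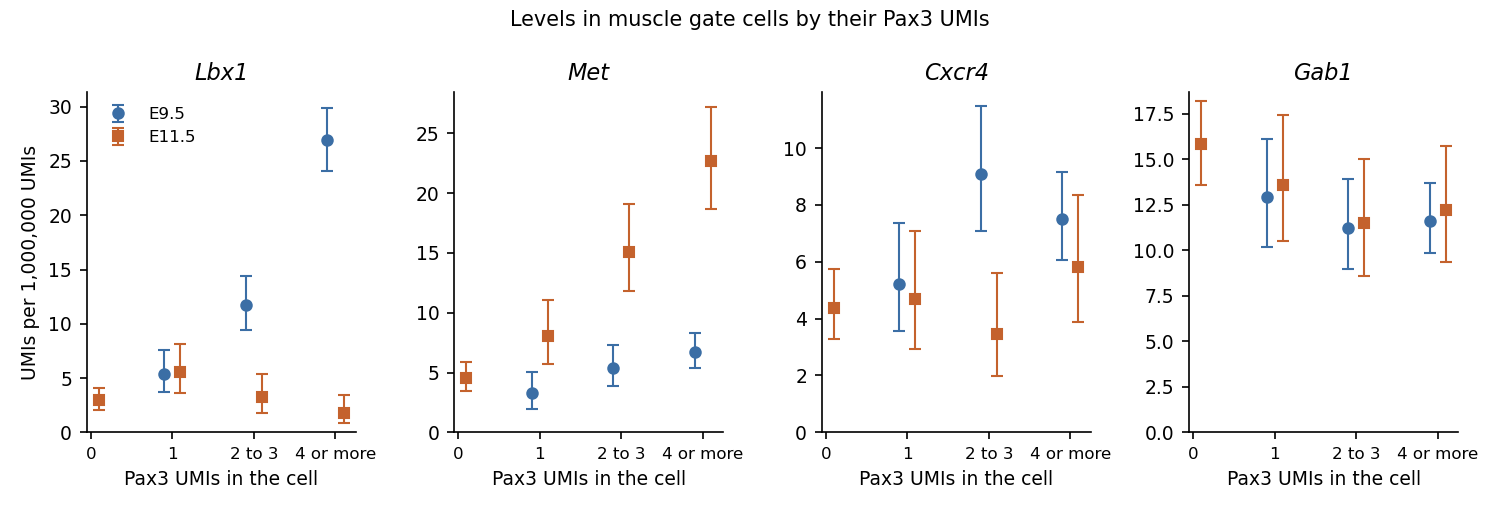
Level of Lbx1, Met, Cxcr4 and Gab1 (UMIs per 1000000 UMIs, linear axes from 0) in cells of the muscle gates by their number of Pax3 UMIs, at E9.5 (blue circles) and E11.5 (orange squares), with exact 95% Poisson intervals as bars. Lbx1 steps up to 26.9 at E9.5 and Met to 22.7 at E11.5, while Cxcr4 lies between 3.46 and 9.10 and Gab1 between 11.2 and 15.8.

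Met was ordered by Pax3 UMIs and Cxcr4 was not. Lbx1, which was ordered by them at E9.5, had no promoter entry and could not be shown. The part of Pax3 in these orders was not tested. The promoters of the receptors Met and Cxcr4 are shown as letters only. They are the 250 bases before the RefSeq start on GRCm38.p6, in the direction of transcription. Capitals mark GTCACG, the core letters bound by paired domains such as that of Pax3, and CANNTG, the E-box bound by Myod1 and its relatives, both searched on either strand.
Met, chr6:17463707-17463956, plus strand: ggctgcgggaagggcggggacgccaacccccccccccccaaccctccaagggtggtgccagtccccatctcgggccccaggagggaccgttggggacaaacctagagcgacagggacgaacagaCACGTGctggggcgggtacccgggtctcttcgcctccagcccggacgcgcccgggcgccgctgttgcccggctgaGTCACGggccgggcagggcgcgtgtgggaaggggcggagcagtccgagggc
Cxcr4, chr1:128592300-128592549, minus strand: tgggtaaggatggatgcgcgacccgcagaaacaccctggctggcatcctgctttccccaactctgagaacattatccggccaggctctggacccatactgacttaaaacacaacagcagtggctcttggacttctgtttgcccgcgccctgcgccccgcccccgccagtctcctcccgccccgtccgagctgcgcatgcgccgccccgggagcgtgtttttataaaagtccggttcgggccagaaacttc

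The Met promoter held GTCACG once, from base -51 of the RefSeq start, and CANNTG once, from base -126, and the matches do not overlap. The GENCODE position of Met begins at 17463800, within this stretch. Both matches lie after that base, so they are before the RefSeq start but inside the GENCODE gene. The Cxcr4 promoter held neither. Of 32851 promoters of this length, 6.93% held GTCACG and 66.2% held CANNTG, and TAATTA, the core of homeodomain sites such as that of Lbx1, was in 4.84% and in neither of these promoters. GTCACG was also missing from the promoters of Hgf, Cxcl12 and Gab1. A match is a description of letters and says nothing of binding.

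Over the 26 gates and stages with at least 50 cells, the genes with the pattern most like each member, by the correlation of log2(UPM + 1) among 13024 genes, were the following. For Lbx1 they were Ripply2 (r = 0.712), Eya2 and Pax3, and for Met Pdgfa (0.816), Parm1 and Sowahb. For Cxcr4 they were Wscd1 (0.886), Spata13 and Slc45a3, and for Gab1 Capns1 (0.908), Ppic and Tax1bp3. For Hgf they were Ppfibp2 (0.859), 2810474O19Rik and Gm26523, and for Cxcl12 Foxd1 (0.935), Pdgfrb and Crispld1. Among the members themselves, Hgf and Cxcl12 were the most alike, with r = 0.70, and Cxcr4 and Cxcl12 the least, with r = -0.50. These correlations run over gates that share 2 libraries and their depth, and are descriptions.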

How the data were processed

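Inter-limb somite cells of 3 pooled mouse embryos per stage were captured on the 10x Genomics Chromium. Per the labels and the study's methods, the authors aligned the reads to mm10 and counted UMIs per gene and barcode with Cell Ranger 3.0.1. The deposited values are these raw counts of called barcodes, 10121 at E9.5 and 10167 at E11.5, without normalization.

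Cells with at least 200 and under 6500 genes and under 15% mitochondrial UMIs were kept, which removed 270 and 572 barcodes. Gates were exclusive, in the order Myod1, Pax7, Pax3 (1 UMI each) and mesenchyme (2 UMIs), and allowed 1 UMI in each panel of other cell types. UMIs were summed over a gate and divided by its total. Poisson, Clopper-Pearson and exact conditional intervals were computed with scipy 1.17.1, numpy 2.4.6 and pandas 2.3.3 under Python 3.11.15, plots were made with matplotlib 3.10.9, and the ratios were tested on simulated data. Thinned cells had 5000 UMIs, and cells with fewer were left out of the thinned values. Doublet scores came from Scrublet (scanpy 1.11.5), and scored cells were kept. Its automatic threshold made 0 calls at E11.5, so a score of 0.2 was used instead, which marked 497 and 377 barcodes. A count of 0 allows 3 counts of the total.

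Genes named are the members, lists of their relatives and pathways, the 3 genes most like each member and the 5 with the highest ratio between cells with and without Lbx1, Met or Cxcr4, among genes with at least 100 UMIs. Myog, Epcam and the Hox split were chosen as markers or axial genes. Some genes of these lists are not reported here. The members and lists were chosen with earlier results of these data known. Gene positions are those of GENCODE M21, and promoters those of RefSeq, which matched 5 of the 6 members and had no entry for Lbx1.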

Additional observations from a re-analysis of the deposited data

How the results depend on the processing

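Of 210 values of 30 results under 8 alternatives, 178 stayed within the interval of the main value and 30 moved beyond it. In 2, the value crossed to the other side of no difference although the main interval left it out. Another 24 crossed where the main interval reached no difference, and 11 intervals reached it where the main one had not. Leaving out cells with any marker UMI of another cell type, removing cells over the Scrublet score, and leaving out cells with a UMI of 7 neural genes, which was chosen after seeing the data, moved none of the 30 beyond its main interval, although the first took the interval of Met in the Pax3 gate across 0. Where values moved, the cause was not tested.

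With gates that may share cells, the log2 stage ratios in the Pax3 gate were -2.32 for Lbx1, 1.48 for Met and -0.67 for Cxcr4, and -0.69 for Cxcr4 in the Pax7 gate. The E11.5 log2 ratios were then -0.18 for Lbx1 and -0.21 for Met between the Pax7 and Pax3 gates, and -0.32 for Cxcr4 between the Myod1 and Pax7 gates. In cells thinned to 5000 UMIs, Cxcr4 in the Pax7 gate between stages (0.08) and Met between the Myod1 and Pax7 gates (0.26) reversed. Also thinned, the stage ratios were -2.36 for Lbx1 in the Pax3 gate and 0.07 for Cxcl12 in mesenchyme, and the E11.5 ratios were -0.21 for Met between the Pax7 and Pax3 gates and -0.18 for Cxcr4 between the Myod1 and Pax7 gates. With the mean of the cells' shares, Lbx1 had -2.03 between stages in the Pax3 gate and -0.32 between the E11.5 Pax7 and Pax3 gates. With gates from 1 more UMI, Met had 1.69 and 0.98 between stages in the Pax3 and Pax7 gates, and -0.46 between these gates at E11.5.

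Among co-detection ratios, thinning gave 0 for Lbx1 and Cxcr4 at E9.5, for Lbx1 and Met at E11.5 and for Met and Gab1 at both stages, and 1.59 for Hgf and Cxcl12 at E11.5. With detection from 2 UMIs the E9.5 ratios were 7.64 for Lbx1 and Met, 3.61 for Lbx1 and Gab1, 4.17 for Met and Gab1 and 0 for Met and Cxcr4. The E11.5 ratios were 4.51 for Lbx1 and Met, 9.96 for Lbx1 and Cxcr4, 3.57 for Met and Cxcr4, 0 for Met and Gab1 and 1.89 for Hgf and Cxcl12. In the muscle gates these ratios rest on few cells. Of the E11.5 cells, 14 had 2 Cxcr4 UMIs and 2 had 3. Of the E9.5 cells, 15 had 2 Met UMIs, and the ratio for Met and Cxcr4 had an interval of 0 to 16.1. No replicate could be left out, since each stage is 1 library. Lbx1 and Cxcr4 had under 20 UMIs in the E11.5 Pax3 and Pax7 gates.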

Other observations

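The Hox genes mark the position of a cell along the body, and the muscle gates were split by a UMI of Hoxc8, Hoxc9 or Hoxc10, a split chosen after seeing that Lbx1 cells had less Hoxc8 and Hoxc9. At E9.5, 478 cells had such a UMI and 1081 did not, and at E11.5 the numbers were 1133 and 381. Lbx1 was lower with a UMI at both stages, at 2.25 and 7.05 UPM at E11.5 (log2 ratio -1.65, with an interval that leaves out 0). The E9.5 levels, 5.37 and 23.3 UPM, restate the observation that prompted the split. Met lay the other way, at 7.09 and 4.70 UPM at E9.5 and at 11.3 and 7.42 at E11.5, with log2 ratios of 0.59 (0.09 to 1.08) and 0.60 (0.12 to 1.12). Gab1 did not differ beyond counting error at either stage. Since the share of cells with these Hox UMIs itself differed between the stages, the stage ratios were repeated within the split. Lbx1 had -1.26 (-1.87 to -0.64) in cells with a UMI and -1.73 (-2.24 to -1.25) in cells without, both nearer 0 than the -2.42 of all muscle gates. Met had 0.67 and 0.66, and Cxcr4 -1.19 (-1.63 to -0.74) and -0.18 (-0.80 to 0.41). These ratios do not separate position from stage, because the Hox genes themselves differed between the stages within a gate. In the Pax3 gate Hoxc8 was at 45.6 UPM in the earlier library and 308 in the later, and Hoxc9 at 22.0 and 108. Cells with a Hox UMI were also deeper, with medians of 16707 and 14212 UMIs in the later library. The part of position in the ratios was not tested. In the Pax3 gate, 5 of 6 axial Hox genes (Hoxc5, Hoxc6, Hoxc8, Hoxc9 and Hoxc10) were at least 2-fold higher at E11.5, and the same 5 in the mesenchyme gate, where 17.4% and 23.9% of all genes differed by 2-fold in either direction.

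The Lbx1 cells of the neural gate differed between the stages in the company they kept. At E9.5, 19 of 21 had a Pax3 UMI (90.5%, against 35.1% of the other neural cells) and 5 of 21 a Met UMI (23.8% against 1.71%). At E11.5, 8 of 39 had a Pax3 UMI (20.5% against 24.5%) and 2 of 39 a Met UMI (5.13% against 3.01%), and none of the 39 had Myf5, which allows a share of up to 7.69%.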
